A study of Homo sapiens with 2 samples.

Results

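CCN1, CCN2 and 8 other genes that are known as targets of the transcriptional coactivator YAP were followed in CL1-0 cells, a human line established from lung adenocarcinoma, given an antibody to the secreted glycoprotein FSTL1. The members were CCN1, CCN2, CRIM1, F3, ANKRD1, AMOTL1, AMOTL2, AJUBA, LATS2 and NUAK2, and they were taken as every probe set of the array whose annotation names 1 of these genes and no other. This gave 21 probe sets of 9 genes, out of 41097 probe sets that name a single gene (19775 genes). The 1 probe set that lists NUAK2 also lists AKIP1, so NUAK2 had no value of its own.

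YAP and its paralog TAZ are held back by the Hippo kinases: LATS1 and LATS2 phosphorylate them, which keeps them in the cytoplasm. When they enter the nucleus they act through the DNA-binding TEAD factors, and CCN1, CCN2 and ANKRD1 are the targets most often read as a measure of that activity. Several targets feed back on the pathway, among them LATS2 itself and the angiomotin family members AMOTL1 and AMOTL2, which bind YAP. CCN1 and CCN2 also respond to serum, growth factors, TGF-β and mechanical load, and CCN1 is a classic immediate early gene.

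The 2 groups were CL1-0 cells at 0 h and at 6 h of treatment with the FSTL1 antibody, with 1 Affymetrix expression array per group. Both are described in the labels as stably transduced cells selected with puromycin, with no construct named, and as cells of a type II alveolar kind. No untreated culture of the same age and no control antibody were analysed here, so time in culture and the antibody cannot be told apart. With 1 array per group there was no replicate spread, no test and no p-value, and every difference below describes this pair of arrays. In such bulk RNA, fewer cells of a kind and less RNA per cell cannot be told apart. Differences are log2 of the intensity at 6 h minus log2 of that at 0 h.

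The median intensity of the whole array was 45.8 at 0 h and 44.9 at 6 h. An intensity of 45.4, the 50th percentile of the pooled values, was used as a floor, and a probe set above it on at least 1 array is called measured. A gene was represented by its measured probe set with the highest mean. Over 12669 measured genes differences had a median of 0.02 and an SD of 0.19. Differences of several probe sets of the same gene scattered with a pooled SD of 0.16, which is not a replicate spread. Of the 10 markers of alveolar type II cells 5 were measured, among them ABCA3 (173.4 and 207.9), SFTPC (113.3 and 92.3) and SFTPB (103.8 and 132.7, with sets from -0.39 to 0.35), while SFTPD, LAMP3 and SLC34A2 did not reach the floor. The summed intensity of this list was 556.3 at 0 h and 616.1 at 6 h. Of 6 epithelial markers 3 were measured (KRT7, KRT8 and KRT18), and EPCAM and CDH1 were below the floor. Of 8 fibroblast markers 2 were measured (COL1A1 and DCN), of 6 endothelial markers 1 (PECAM1) and of 6 leukocyte markers 0. The summed intensity at 0 h and 6 h was 294.9 and 260.9 for the epithelial, 406.1 and 350.0 for the fibroblast, 157.8 and 133.3 for the endothelial and 89.8 and 83.7 for the leukocyte markers. All these sums, the alveolar one included, also take in genes below the floor. The leukocyte sum holds only such values and is not a level of expression.

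Among the YAP targets, CCN1 was the 1 gene past 1.5-fold, a size that 0.75% of all measured genes reached upwards and 0.182% downwards. It was higher at 6 h on both of its probe sets, whereas CCN2, its closest relative in the list, was nearly level. CRIM1 and LATS2 were slightly higher, AMOTL2 and AJUBA slightly lower, and AMOTL1 was lower on a dim probe set. F3 and ANKRD1 never reached the floor and so have no direction here. Of 21 probe sets 15 were measured, each of them above the floor on both arrays, and they represent 7 of the 10 genes.

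**Figure D1:**
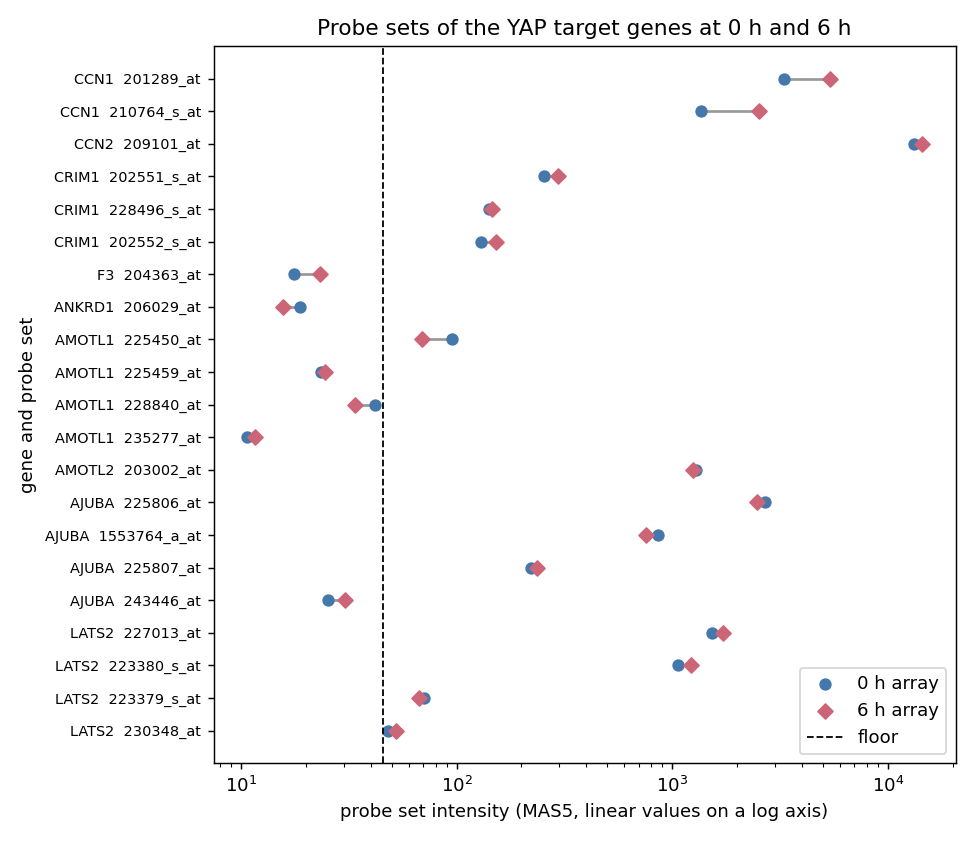
Intensity of each of the 21 probe sets of the YAP target genes on the 0 h array (circles) and the 6 h array (diamonds), on a log axis, with the floor of 45.4 as a dashed line. Both CCN1 probe sets show the widest gaps among those above the floor, and 6 probe sets lie wholly below the floor.

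CCN1, formerly CYR61, encodes a secreted matricellular protein that binds integrins and heparan sulphate proteoglycans. Its probe set 201289_at had an intensity of 3303 at 0 h and 5409 at 6 h, and its probe set 210764_s_at went from 1366 to 2538. The 6 h array was the higher one for both. The fold was 1.64 for the first set (log2 difference 0.71) and 1.86 for the second (0.89), and the sets differed from each other by 0.18, close to the usual scatter between sets of a gene. On its brightest set CCN1 ranked 43rd from the top of the 12669 measured genes.

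All measured probe sets were split by mean intensity into 4 classes of the same size. Both CCN1 probe sets fell in the brightest class, where differences scatter least (SD 0.15, against 0.22 in the dimmest class). In that class of 7052 probe sets, 4 were as high as 201289_at or higher, itself included, and 2 were as high as 210764_s_at. Of 6122 genes with at least 2 measured probe sets, 6 had every set at least 1.5-fold higher, CCN1 among them, and 0 had every set at least 1.5-fold lower. These counts describe where CCN1 lay on this pair of arrays. Its difference was known when the list was chosen, and they are not evidence from other samples. Over the settings tried, the value taken for CCN1 as a gene stayed between 0.69 and 0.80. Its dimmer set 210764_s_at by itself lay between 0.86 and 0.89.

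CCN2, formerly CTGF, encodes the related connective tissue growth factor, a matricellular protein best known from fibrosis and TGF-β signalling. Its single probe set 209101_at had an intensity of 13244 at 0 h and 14379 at 6 h. The 6 h value was 1.09-fold higher, a log2 difference of 0.12. This is smaller than the scatter between probe sets of a gene, which does not measure the error of a single set between arrays. In the brightest class 2691 of 7052 probe sets differed by at least as much in either direction. CCN2 has no second probe set that could check this value, and whether the differences of CCN1 and CCN2 are unequal beyond replicate error was not tested. The other 4 members of the CCN family, CCN3, CCN4, CCN5 and CCN6, were all below the floor on both arrays, with a highest intensity of 40.7 (CCN5).

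The element that TEAD factors bind, with the core GGAATG or on the other strand CATTCC, was searched in the 250 bases before each gene's start in the RefSeq promoter table (GRCh38.p14), because CCN2 is the standard reporter of these factors. The table matched 8 of the 10 genes with 10 windows, and CCN1 and CRIM1 had no entry. At least 1 core lay in 5 of the 10 windows, from 5 genes, and in 11.9% of all 35116 windows. The window of CCN2 holds 3, starting 169, 104 and 95 bases before the start, and 0.0826% of all windows hold 3 or more. The members were listed as known YAP targets, so these shares describe the list and are not separate evidence about it. A match is a stretch of letters and not a shown binding site. The windows with more than 1 core are shown for CCN2, whose transcript was bright, and for ANKRD1, whose transcript was below the floor, with the core in capitals, both on the minus strand at chr6:131951373-131951622 and chr10:90921088-90921337.
CCN2: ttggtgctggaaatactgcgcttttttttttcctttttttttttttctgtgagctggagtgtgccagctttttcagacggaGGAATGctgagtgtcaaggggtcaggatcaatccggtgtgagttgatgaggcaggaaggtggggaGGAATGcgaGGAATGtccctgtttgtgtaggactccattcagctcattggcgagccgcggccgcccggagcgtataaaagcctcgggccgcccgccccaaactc
ANKRD1: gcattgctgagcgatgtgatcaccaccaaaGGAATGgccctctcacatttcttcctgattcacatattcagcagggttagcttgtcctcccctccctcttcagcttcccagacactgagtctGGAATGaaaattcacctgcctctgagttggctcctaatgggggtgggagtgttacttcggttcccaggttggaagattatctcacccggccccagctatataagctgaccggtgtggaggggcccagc

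ANKRD1, which encodes an ankyrin repeat cofactor known from heart and injured muscle, had its cores 220 and 128 bases before the start. Its only probe set, 206029_at, had an intensity of 18.7 at 0 h and 15.7 at 6 h. Both values are under the floor, so the array gives no direction for this target. NUAK2, an AMPK-related kinase that supports YAP activity, also has 2 cores in its window, 197 and 18 bases before the start, and 0.94% of all windows hold 2 or more. The probe set shared by NUAK2 and AKIP1 had an intensity of 132.4 and 109.2, a difference of -0.28 that cannot be assigned to either gene.

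Other elements were also read in the same windows, since CCN1 is also a target of serum response factor and AP-1. CCN1 itself has no window, so the search covers other members only and tells nothing about CCN1. The AP-1 element TGAGTCA, or TGACTCA on the other strand, occurred in the window of F3, 210 bases before the start, in no other of the 10 windows and in 4.2% of all windows. The CArG box bound by serum response factor was in 0 of the 10 windows and in 1.16% of all. F3 encodes tissue factor, the membrane receptor that starts the extrinsic clotting cascade with factor VII. Its probe set 204363_at had an intensity of 17.6 and 23.3, below the floor on both arrays.

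CRIM1, a transmembrane protein with cysteine-rich repeats that binds bone morphogenetic proteins, was slightly higher at 6 h on all 3 of its probe sets. Probe set 202551_s_at went from 253.4 to 296.8, 202552_s_at from 129.2 to 152.9 and 228496_s_at from 141.6 to 146.1. The log2 differences were 0.23, 0.24 and 0.05, each under 1.2-fold. In its intensity class, 1652 of 7051 probe sets differed by at least as much as the brightest of them.

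Among the members that act on the pathway itself, the kinase LATS2 had 4 measured probe sets, 3 higher and 1 lower. Probe set 227013_at went from 1527 to 1712 and 223380_s_at from 1068 to 1228, with log2 differences of 0.16 and 0.20. The other two were close to the floor, with 70.3 and 67.3 for 223379_s_at (-0.06) and 48.2 and 52.5 for 230348_at (0.13). The brighter sets of LATS2 were therefore about 1.12-fold and 1.15-fold higher, within the range in which 1221 of 7052 probe sets of the brightest class differed by at least the larger amount.

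AJUBA, a LIM-domain scaffold that binds LATS kinases and restrains them, had probe sets that disagreed. Probe set 225806_at was 2681 at 0 h and 2478 at 6 h, and 1553764_a_at was 859.7 and 754.9, with log2 differences of -0.11 and -0.19. Probe set 225807_at was 220.6 and 235.8, a difference of 0.10. The range of 0.28 between the sets is larger than any of their differences, and the fourth set (25.4 and 30.3) was below the floor.

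AMOTL1 and AMOTL2 are angiomotin-like scaffolds of cell junctions that bind YAP and keep it out of the nucleus. AMOTL2 was level on its single probe set 203002_at, at 1289 and 1254, a log2 difference of -0.04. AMOTL1 was lower at 6 h on the 1 of its 4 probe sets that was measured, 225450_at, which went from 95.7 to 69.3. This is a difference of -0.46, or 1.38-fold, and it placed AMOTL1 94th from the lowest of 12669 genes. Its value at 6 h lies near the floor, and in its intensity class 339 of 7051 probe sets differed by as much. The other sets of AMOTL1 were under the floor at 23.5 and 24.4, 42.1 and 33.6, and 10.7 and 11.6.

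AMOTL2 and AJUBA each have 2 windows in the promoter table, and in each case 1 of them holds a single TEAD core, 69 bases before the start in AMOTL2 and 59 in AJUBA. Whether a core goes with the direction of a gene was not tested. The stretches around these single cores are shown, as CATTCC in AMOTL2 and as GGAATG in AJUBA. Both lie on the minus strand, at chr3:134374481-134374546 and chr14:22976866-22976931, with 30 bases on each side of the core in capitals.
AMOTL2: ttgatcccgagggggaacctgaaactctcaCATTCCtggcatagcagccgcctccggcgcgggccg
AJUBA: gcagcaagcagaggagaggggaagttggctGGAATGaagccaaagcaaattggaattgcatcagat

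**Figure D2:**
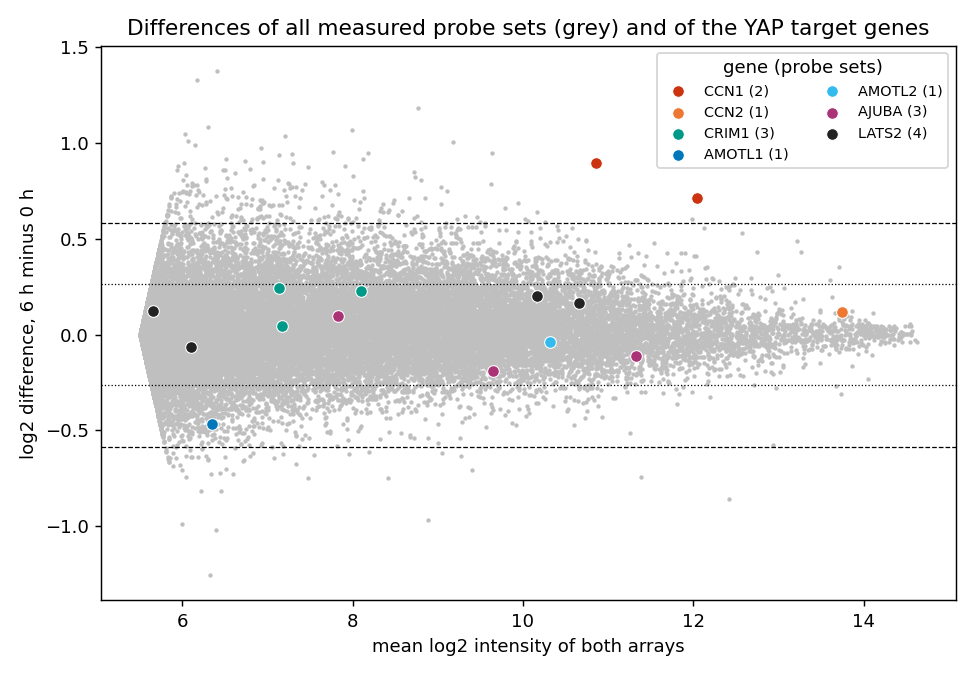
Log2 difference (6 h minus 0 h) against mean log2 intensity for all measured probe sets (grey) and the 15 measured probe sets of the YAP target genes (coloured), with lines at 1.2-fold (dotted) and 1.5-fold (dashed). CCN1 stands above 1.5-fold at high intensity with both sets, AMOTL1 lies below 1.2-fold at low intensity, and the other members lie inside the 1.2-fold lines.

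Over the 7 measured genes, 4 were higher (CCN1, CRIM1, LATS2 and CCN2) and 3 lower (AMOTL2, AJUBA and AMOTL1), where 54.3% of all measured genes were higher and 45.7% lower. At least 1.5-fold higher was 1 member, CCN1, against 0.75% of all genes, and at least 1.5-fold lower were 0 members, against 0.182%. At 1.2-fold the counts were 1 higher (9.9% of all genes) and 1 lower, AMOTL1 (5.29%). The median of the 7 genes was 0.12, and 0.04 without CCN1, against 0.02 for all genes. The members ranged from -0.46 to 0.71, and without CCN1 from -0.46 to 0.23. Counted by probe set, 2 of 15 were at least 1.5-fold higher, both of CCN1, against 0.761% of 23272 probe sets.

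The regulators of the pathway differed little. Of 23 Hippo kinases, adaptors and upstream regulators that are not members, 21 were measured, 15 of them higher and 6 lower (median 0.13). At least 1.2-fold higher were 3, the adaptor SAV1, the LATS coactivator MOB1B and the kinase NUAK1. At least 1.2-fold lower was 1, the LIM protein WTIP. Over all measured genes 54.3% were higher, 9.9% at least 1.2-fold higher and 5.29% at least 1.2-fold lower. SAV1 went from 444.5 to 556.0, but its 4 measured sets ranged from -0.39 to 0.32. MOB1B went from 768.9 to 956.6, NUAK1 from 117.3 to 140.9 and WTIP from 170.5 to 139.7, each on 1 probe set. None of them passed 1.5-fold.

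Both coactivators were higher at 6 h, while the DNA-binding TEAD factors were mixed. WWTR1, which encodes TAZ, was higher at 6 h (427.8 to 628.9, 1.47-fold), with 3 probe sets between 0.10 and 0.61. YAP1 was also higher on all 3 of its sets (1725 to 2106, 0.13 to 0.32). TEAD4 was lower (1019 to 762.7), with its sets at -0.42 and -0.38, and TEAD2 was lower on its brightest set (279.7 to 220.0) but ranged from -0.35 to 0.12. TEAD1 was slightly lower on its brightest set (1710 to 1603), with measured sets from -0.47 to -0.09. TEAD3 was higher on its 1 probe set (104.0 to 123.2, a difference of 0.24). Of the 10 factors 8 were measured, 4 higher and 4 lower (median 0.04). That median lay between -0.12 and 0.17 over the settings tried, so its sign is not settled.

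A wider list of 30 YAP and TEAD targets outside the members had 20 measured genes, 11 higher and 9 lower (median 0.02), the same as for all genes. In this list 1 gene was at least 1.5-fold higher, against 0.75% of all genes, and 0 were at least 1.5-fold lower, against 0.182%. The 1 higher gene was the ETS factor ETV5 (202.1 to 381.5), with 4 sets between 0.14 and 0.92. The membrane repair protein MYOF went from 126.7 to 150.7 and the guidance cue SLIT2 from 51.5 to 61.1, while the integrin ITGB2 went from 59.6 to below the floor. FSTL1, the antibody's target, belongs to the same list and was at 58.3 and 52.8, near the floor, on the 1 of its 3 probe sets that was measured. The sign of this list's median changed with the setting, from -0.02 to 0.05, and 9 of 20 were higher after quantile or loess scaling.

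The receptors through which CCN proteins act differed little. Of 12 integrin subunits and co-receptors 10 were measured, 7 higher and 3 lower (median 0.02), where 54.3% of all measured genes were higher. With centred or quantile-scaled differences 5 of 10 were higher. The Wnt co-receptor LRP6, which also binds CCN2, was higher on all 3 sets (747.0 to 909.1, 0.28 to 0.42), ITGB3 was at 52.8 and 60.5 and ITGA5 at 87.8 and 91.7. ITGB2 had the largest difference, with only a bound since its 6 h value was below the floor (at least 1.31-fold lower). The αv and β1 subunits, ITGAV (7129 and 7394) and ITGB1 (11083 and 11209), named after their values were seen, were within 1.04-fold.

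Further lists were tied to other routes and members, and their counts stand beside 54.3% of all measured genes higher and 45.7% lower. Genes of serum response factor and its MRTF coactivators, a route that shares CCN1 and CCN2 with YAP, had 14 measured of 18, 11 higher and 3 lower (median 0.10), or 9 of 14 higher under each of the 3 other scalings. They were led by vinculin, VCL (2007 to 2470), and SRF itself (496.3 to 599.8), followed by MRTFA (230.3 to 264.9, sets from -0.49 to 0.20) and MRTFB (752.8 to 865.2), and 0 passed 1.5-fold. Around tissue factor, 4 of 9 genes other than F3 were measured, 3 higher and 1 lower (median 0.28, or 0.05 with the median over the probe sets of each gene). The inhibitor TFPI was 1.64-fold higher (219.6 to 360.1), with 2 sets at 0.41 and 0.71. Factor VII, F7, went from 107.0 to 85.0, the thrombin receptor F2R from 332.8 to 404.9 and the urokinase receptor PLAUR from 94.1 to 113.8, each with 2 sets of opposite sign. Among 13 bone morphogenetic protein genes, the ligands and readouts of the pathway that CRIM1 touches, 9 were measured, 4 higher and 5 lower (median -0.14), or 3 of 9 higher under the same scalings. Without _x_at and _s_at probe sets 3 of 4 were higher and the median was 0.12. At least 1.5-fold higher was 1 gene, SMAD6, against 0.75% of all genes. At least 1.5-fold lower was also 1, BMP4, against 0.182%. SMAD6 went from 101.8 to 156.4 on the 1 of its 4 probe sets that was measured. BMP4 went from 74.6 to 49.7 on its 1 probe set, only just past 1.5-fold and near the floor at 6 h. ID1 went from 2924 to 2048 and ID3 from 896.7 to 696.7.

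CCN1 was set beside other immediate early genes, which are transcribed within minutes of a stimulus without new protein synthesis. Of 17 listed, 12 were measured and 12 were higher, with a median of 0.32, 7 of them at least 1.2-fold and 2 at least 1.5-fold, where 54.3%, 9.9% and 0.75% of all genes were that much higher. The count was 14 of 15 with the floor at the 40th percentile, 14 of 16 with no floor and 6 of 7 without _x_at and _s_at probe sets. FOS has only a bound, since its 0 h value of 37.9 lay below the floor. KLF6 (-0.29 to 0.38) and NR4A1 (-0.18 to 0.48) had sets of opposite sign. The list was chosen with earlier results of these data known, so these counts are a description and not evidence from other samples. ATF3 went from 86.8 to 170.7 (2 sets at 0.30 and 0.98). JUN went from 67.2 to 122.0 on the 1 of its 4 probe sets that was measured. DUSP1 went from 447.9 to 670.4 but had 3 sets from -0.17 to 0.59, and EGR1 from 379.5 to 542.8 with 3 sets from 0.16 to 0.67. Among the 9 lists taken without the members its median was the highest, and it stayed between 0.22 and 0.36 over the settings tried. Reference genes had a median of 0.01 over 11 measured genes, 6 higher and 5 lower, with differences from -0.27 (TBP, 535.2 to 443.9) to 0.08 (ACTB, 13049 to 13759), and SDHA (-0.12) and GUSB (-0.08) in between.

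**Figure D3:**
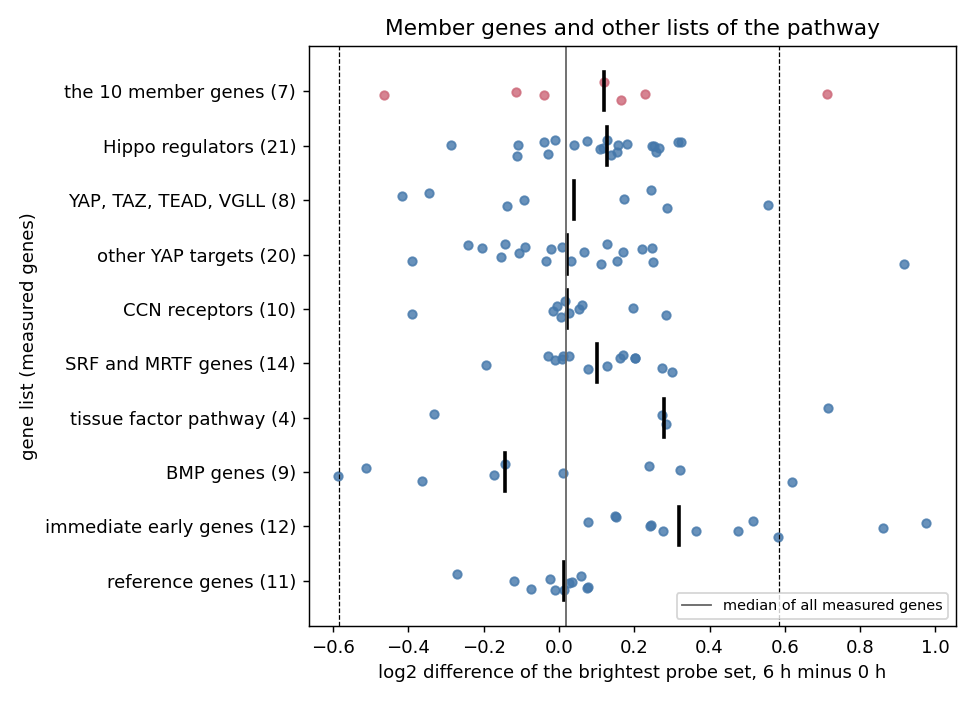
Log2 difference (6 h minus 0 h) of the brightest probe set of each measured gene for the YAP target genes (top row, red) and 9 lists without those genes (blue), with the median of each list as a black bar, the median of all genes as a grey line and 1.5-fold as dashed lines. CCN1, at 0.71, is the 1 member beyond 1.5-fold, and the immediate early genes have the highest median, at 0.32.

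The genes whose intensities on the 2 arrays lay nearest to those of CCN1, by Euclidean distance over both log2 values, were ZNF217 (3677 to 5405, distance 0.15), SKA2 (3648 to 4844, 0.21) and DUSP6 (3569 to 4746, 0.22). Each of these differed by less than CCN1, with 0.56, 0.41 and 0.41. Nearest to CCN2 were EEF2 (13462 to 14103, distance 0.04), ACTB (13049 to 13759, 0.07) and MRFAP1 (13622 to 13598, 0.09). With 2 arrays this likeness rests on 2 values per gene.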

How the data were processed

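The authors deposited 1 linear intensity per probe set. MAS5 is the method named per the submitters' processing notes; its version, parameters and scaling are not given in the sources used here. This method subtracts a local background and a mismatch signal, so dim values are noisy. The table held 54675 probe sets on each of 2 arrays: 41097 naming 1 gene, 1801 several, 11721 none and 62 controls. Symbols came from the platform annotation, and 41043 were updated by Entrez identifier through a RefSeq gene table (GRCh38.p14).

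Before log2, values were raised to a floor at the 50th percentile of both arrays, an assumption made without detection calls. Calls are folds of 1.2 and 1.5, with no test. Named were all member probe sets, up to 4 measured genes of each list with the largest difference, and the 3 genes nearest to CCN1 and to CCN2. FSTL1, as the antibody's target, the examples of cell type markers, and TEAD1, TEAD3, FOS, KLF6 and NR4A1 were named apart from this rule. The members and lists were chosen with earlier results of these data known. PTPN14, ITGB2 and ACTB are among the genes that stand in 2 lists. Steps were tested on simulated data, with planted differences larger than 1.5-fold, in bright genes and with less scatter than these arrays show. That test checks the steps and does not measure the error of the calls made here. Python 3.11.15, pandas 2.3.3 and statsmodels 0.14.6 were used.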

Additional observations from a re-analysis of the deposited data

How the results depend on the processing

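The 8 alternatives moved the floor to the 40th or the 60th percentile, dropped it for log2(value + 16), centred the differences, equalised the arrays by quantiles, removed a loess curve (span 0.3), took the median over the probe sets of each gene, or left out _x_at and _s_at sets. Under all of them 1 member gene (CCN1) was at least 1.2-fold and 1.5-fold higher, 1 was at least 1.2-fold lower and 0 at least 1.5-fold lower. The median of the members lay between 0.04 and 0.12. AMOTL1 ranged from -0.49 to -0.39 and CCN2 from 0.10 to 0.12. CRIM1 has only _s_at sets and gave no value without them. The CCN family, with a median of 0.42 over CCN1 and CCN2, had a median of 0.0438 with 2 of 4 higher at the 40th percentile floor and 0.0481 with 3 of 6 higher with no floor, since its dim members then enter. With the median over probe sets the tissue factor genes had a median of 0.0549, and 3 of 11 reference genes were higher. Without _x_at and _s_at sets the bone morphogenetic protein genes had a median of 0.12 with 3 of 4 higher, since fewer genes were measured, and 2 of 7 reference genes were higher. The median over all genes moved most under quantile normalization, by -0.0301. No paired analysis was possible because each group has 1 array. AMOTL1 and the dimmer LATS2 sets lie near the floor, and F3 and ANKRD1 below it.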
